A study of Mus musculus with 6 samples.

Results

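The Fc gamma receptors of the mouse, the cell surface receptors for immunoglobulin G, are encoded by Fcgr1, Fcgr2b, Fcgr3 and Fcgr4. They were followed here in cells of the stomach corpus sorted for the macrophage marker F4/80. The 4 genes were taken by their symbols from a table of 23049 genes, and each symbol had 1 row. The samples were F4/80-positive cells sorted from the corpus of mice that had received L635 or DMP-777, with 3 libraries for each compound. Each compound kills the parietal cells, which make the stomach's acid. L635 is a relative of DMP-777 known not to block neutrophil elastase, as DMP-777 does. By the design text, L635 was given to induce spasmolytic polypeptide-expressing metaplasia (SPEM) with intestinal features, and DMP-777 to induce SPEM. Untreated mice were not analysed here, and the sources used here do not give strain, age, dose or treatment time. The labels do not say how many animals stand behind a library, so p-values measure sample-to-sample spread only, and this may be technical.

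Fc gamma receptors bind antibody that coats particles, microbes and dying cells, and let macrophages engulf the coated target and release cytokines. FcγRI, FcγRIII and FcγRIV, the products of Fcgr1, Fcgr3 and Fcgr4, are activating: they pair with the common gamma chain encoded by Fcer1g, whose immunoreceptor tyrosine-based activation motif (ITAM) is phosphorylated by Src family kinases and recruits the kinase Syk. FcγRIIB, the product of Fcgr2b, is the inhibitory receptor: its own tail carries an immunoreceptor tyrosine-based inhibition motif (ITIM), which recruits the lipid phosphatase SHIP-1, and the balance between both kinds sets the threshold at which immune complexes activate a macrophage.

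Fcgr2b, Fcgr4, Fcgr3 and Fcer1g lie in that order on chromosome 1 (GRCm38), at chr1:170960558-170976547, chr1:171018920-171029761, chr1:171051174-171064935 and chr1:171229572-171234365. Fcgr1 lies alone at chr3:96282909-96293969. All of them are on the minus strand except Fcgr4. The stretches of coding sequence that set the inhibitory receptor apart from the activating chain are printed here, with the tyrosine codons in capitals. The first codes for the ITIM of Fcgr2b, at codons 317 to 322 of 340 in exon 8 (chr1:170961071-170961088, minus strand). The second codes for the ITAM of Fcer1g, at codons 65 to 79 of 86, across exons 4 and 5 (chr1:171229889-171230072, minus strand). Both come from the first-numbered GENCODE M21 transcript of each gene, a choice made after the longest coding sequence of Fcer1g had held no ITAM match.
Fcgr2b ITIM: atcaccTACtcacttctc
Fcer1g ITAM: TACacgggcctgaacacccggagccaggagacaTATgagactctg
The ITAM pattern was found in none of the coding sequences of the 4 receptors. The 6-residue ITIM pattern searched for (isoleucine, leucine or valine, any residue, tyrosine, any 2 residues, leucine or valine) is short, and it also matched 2 times in Fcgr1, 1 time in Fcgr4 and 1 time in Fcer1g; a match alone is not a working motif.

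Fcgr2b and Fcgr3 are close paralogs in the part that binds antibody, and this limits what short reads can tell apart. Their coding sequences were identical at 87.5% of 785 aligned bases, against 67.8% to 70.7% for every pair that includes Fcgr1 or Fcgr4. Of the 50-base windows of coding sequence, 17% in Fcgr2b and 22% in Fcgr3 occurred unchanged in a transcript of the other gene, and 0 windows were shared by any other pair of receptors. The longest shared run, 129 bases across exons 3 and 4 of both genes, is shown because reads inside it fit both. It lies at chr1:170966674-170968081 in Fcgr2b and chr1:171054167-171057792 in Fcgr3, introns included.
Fcgr2b and Fcgr3 shared run: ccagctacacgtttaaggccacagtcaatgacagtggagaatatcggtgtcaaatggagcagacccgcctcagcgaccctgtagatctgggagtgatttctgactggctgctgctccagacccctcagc
The sources used here do not say how such reads were assigned, so the levels of Fcgr2b and Fcgr3 are uncertain against each other.

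The RefSeq promoters of the receptors, from 250 bases before to 50 bases after the start of the gene (GRCm38.p6), were searched for GAGGAA on both strands, the core of sites bound by the myeloid transcription factor PU.1. The letters were chosen after the 4 receptor promoters had been read, so their presence there is a description only. The motif was present 1 time each in Fcgr1, Fcgr3 and Fcgr4, in all 3 as its reverse complement TTCCTC, and in neither Fcgr2b nor Fcer1g. Of all 32851 promoters in the table, 28.3% held it on either strand. The windows are shown with the match in capitals, because the 3 activating receptors share it; a match does not show binding. They lie at chr3:96293989-96294054 (minus strand), chr1:171059374-171059439 (minus strand) and chr1:171018874-171018939 (plus strand), with the match beginning 55, 6 and 22 bases before the start that RefSeq gives the gene. For Fcgr3 that start lies inside the GRCm38 span given above, which begins further upstream, so the window is a promoter by RefSeq's start only.
Fcgr1 promoter: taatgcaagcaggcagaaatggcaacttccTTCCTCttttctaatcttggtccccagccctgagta
Fcgr3 promoter: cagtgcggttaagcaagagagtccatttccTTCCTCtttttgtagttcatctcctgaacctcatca
Fcgr4 promoter: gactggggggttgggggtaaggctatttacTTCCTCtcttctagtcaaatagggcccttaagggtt

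Levels are in RPKM, which divides reads by gene length and library depth; the values themselves showed this unit. No value lies below 1, the floor of all libraries. Depth could only be estimated, from the spacing of low values, as 4260000 to 20930000 reads per library. The rule that picks between candidate depths was revised after its first estimates were seen, and each estimate may be off by a whole factor. On these estimates the lowest read count behind a receptor value was about 173, in Fcgr4 of L635 replicate 2. All 4 receptors were among the well expressed genes of every library, between the 85th percentile of the table (Fcgr1 in DMP-777 replicate 1) and the 98.8th percentile (Fcgr3 in DMP-777 replicate 3). The sorted cells carried the macrophage genes, with all 17 markers of the list found and a summed level of 1434 to 2806 RPKM in L635 and 1662 to 2856 in DMP-777. Emr1, which encodes F4/80, was at 97.9, 127 and 41.3 RPKM in L635 and at 46.1, 88.5 and 94.3 in DMP-777. The eosinophil markers, with Epx at the floor, summed to 177, 445 and 105 RPKM in L635 and to 127, 240 and 304 in DMP-777. Ear2 was the most abundant of them by mean, at 154, 150 and 73.3 RPKM in L635 and 104, 201 and 207 in DMP-777. Its log2 fold change was -0.45, but 5 of the 7 tested eosinophil markers were higher in L635 and 2 lower (median 0.56). Alox15, chosen after its values were seen, was at 15.7, 162 and 17.9 RPKM in L635 and 13.7, 27.2 and 67.9 in DMP-777. Ear2 therefore does not stand for the list. The part of eosinophils in the receptor levels was not tested. Epithelial transcripts were abundant as well: the 6 surface mucous cell genes summed to 2751 to 3284 RPKM in L635 and 4776 to 12153 in DMP-777, without overlap, and the 9 general epithelial genes to 658 to 892 in L635 and 815 to 1238 in DMP-777. A lower level of a macrophage gene can mean fewer macrophages or less RNA per macrophage, and bulk samples cannot tell these apart.

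None of the 4 receptors differed between the L635 and DMP-777 cells beyond the spread between libraries. With limma on log2(RPKM + 1), 0 of 4 had a Benjamini-Hochberg adjusted p below 0.05, and so had 0 of 12102 genes tested (0%). At an unadjusted p below 0.05 there were 0 of 4 receptors, against 10.1% of all genes tested. In 0 of 4 did the groups lie apart, against 16% of all genes, 7.25% higher and 8.75% lower in L635. The inhibitory Fcgr2b and the activating Fcgr1 had small positive log2 fold changes, 0.19 and 0.15, and the activating Fcgr3 and Fcgr4 had negative ones, -0.28 and -0.44. These intervals do not show that the levels are alike: the widest, that of Fcgr1, ran from -0.85 to 1.15.

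**Figure D1:**
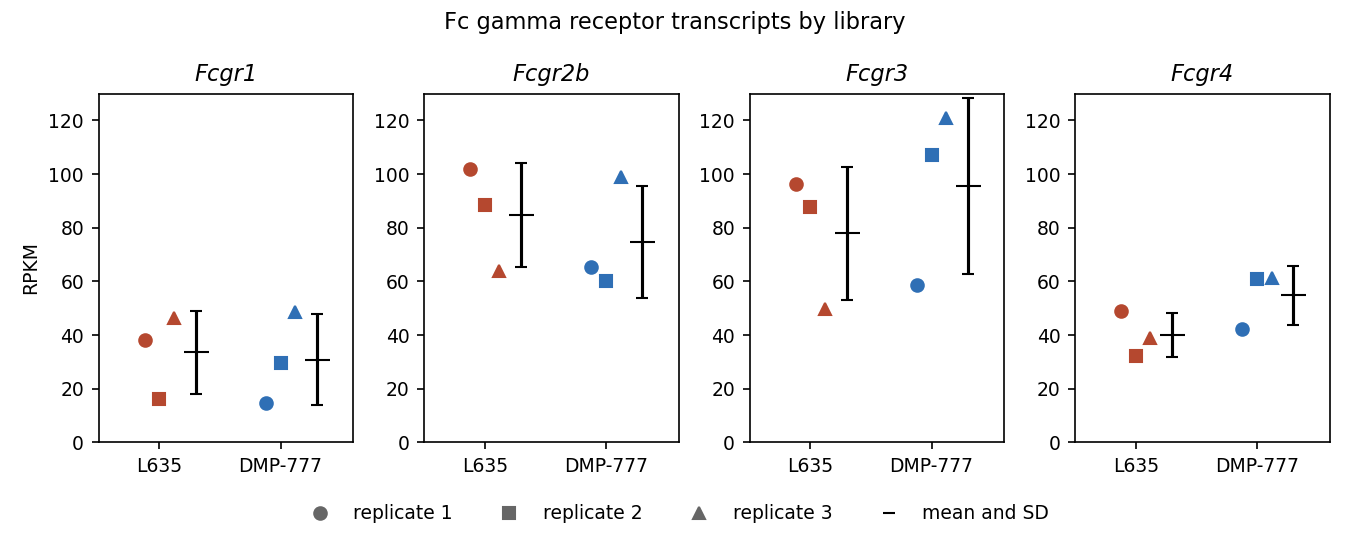
RPKM of the 4 Fc gamma receptor genes in the 3 L635 and the 3 DMP-777 libraries. Points are libraries and bars the mean and SD of each treatment; the groups overlap for every receptor, and Fcgr1 spans 14.6 to 48.6 RPKM within DMP-777.

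Among the activating receptors, Fcgr1 encodes the high-affinity receptor, which can hold single antibody molecules and is known to be raised by interferon gamma. It stood at 38.2, 16.3 and 46.3 RPKM in L635 replicates 1, 2 and 3, against 14.6, 29.5 and 48.6 RPKM in DMP-777 replicates 1 to 3. Each treatment held both a low and a high library, so the groups covered the same range. The means were 33.6 ± 15.5 RPKM in L635 and 30.9 ± 17 RPKM in DMP-777 (SD, n = 3 each); the log2 fold change, 0.15 ± 0.46, did not pass (SE, limma adjusted p = 0.929). The direction of Fcgr1 rested on single libraries: leaving out DMP-777 replicate 1 gave -0.29, leaving out L635 replicate 3 gave -0.14, and leaving out L635 replicate 1 gave -0.00. Leaving out L635 replicate 2 gave 0.59, and DMP-777 replicate 3 gave 0.54. With the epithelial level of each library as a covariate it was -0.45.

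Fcgr3 encodes a low-affinity receptor for immune complexes, found on macrophages, neutrophils, mast cells and natural killer cells. It was at 96.2, 87.8 and 49.6 RPKM in L635 and at 58.6, 107 and 121 RPKM in DMP-777. L635 replicate 3 and DMP-777 replicate 1 were low, and the same libraries were low for Emr1. The means were 77.8 ± 24.9 RPKM in L635 and 95.5 ± 32.7 RPKM in DMP-777; the log2 fold change, -0.28 ± 0.36 with a 95% interval from -1.07 to 0.51, did not pass (limma adjusted p = 0.813). The sign turned with the scaling, to 0.12 after quantile normalization and 0.01 when a trend on exonic length and GC was taken out. It was 0.06 with the macrophage level as a covariate and 0.01 without L635 replicate 3, and it was -0.60 without DMP-777 replicate 1.

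Fcgr4 encodes a receptor of intermediate affinity for certain IgG subclasses, restricted in mice to myeloid cells and known to be high on monocytes of the Ly6C-low type. It was at 48.8, 32.3 and 39.0 RPKM in L635 and at 42.2, 61.0 and 61.1 RPKM in DMP-777. L635 replicate 1 lay above DMP-777 replicate 1, and the other 2 libraries of DMP-777 lay above all of L635. The means were 40.0 ± 8.33 RPKM in L635 and 54.8 ± 10.9 RPKM in DMP-777. The log2 fold change of -0.44 ± 0.30, with a 95% interval from -1.09 to 0.21, had the smallest p of the 4 receptors and did not pass (limma adjusted p = 0.632, unadjusted p = 0.164). It was negative in every alternative and with each library left out, but only -0.09 after quantile normalization and -0.08 when the length and GC trend was taken out. The 12 monocyte markers summed to 361, 242 and 343 RPKM in L635 and to 221, 246 and 375 RPKM in DMP-777, overlapping between the treatments. The list covers monocytes in general, so its sum does not measure the Ly6C-low type. The part of monocytes in the Fcgr4 level was not tested.

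The inhibitory Fcgr2b was at 102, 88.3 and 63.9 RPKM in L635 and at 65.2, 60.1 and 98.8 RPKM in DMP-777. It varied least of the receptors, with its highest library 1.7 times its lowest, against 3.32 times for Fcgr1. The means were 84.8 ± 19.5 RPKM in L635 and 74.7 ± 21 RPKM in DMP-777; the log2 fold change, 0.19 ± 0.32 with a 95% interval from -0.49 to 0.87, did not pass (limma adjusted p = 0.858). Quantile normalization moved it to 0.61 (limma adjusted p = 0.521, unadjusted p = 0.0346). No other receptor had an unadjusted p below 0.05 in any setting. B cells and sinusoidal endothelium are other known sources of Fcgr2b. The 10 B and plasma cell markers, with Blk, Mzb1 and Tnfrsf17 at the floor, summed to 22.6 to 36 RPKM in L635 and 30.9 to 41.2 in DMP-777. The 9 endothelial markers, with Kdr, Emcn and Stab2 at the floor, summed to 33.6 to 127 RPKM in L635 and 47 to 85.3 in DMP-777. Lyve1, which some macrophages also express, supplied most of that sum, at 25.1, 110 and 21.1 RPKM in L635 and 72.3, 30.7 and 55.4 RPKM in DMP-777.

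Mast cells carry Fcgr3 and Fcgr2b too, and their transcripts were highest in L635 replicate 1. Their 9 markers summed to 1039, 84.4 and 11.2 RPKM in L635 and to 243, 402 and 212 RPKM in DMP-777. The most abundant of them, the protease gene Mcpt2, was at 391, 24.8 and 3.15 RPKM in L635 and at 163, 226 and 95 RPKM in DMP-777. The genes of the alpha and beta chains of the high-affinity receptor for immunoglobulin E, chosen after their values were seen, were highest in the same library. In L635 replicate 1 Fcer1a stood at 39.0 RPKM and Ms4a2 at 13.9, while no other library exceeded 11 for Fcer1a or 1.24 for Ms4a2. L635 replicate 1 also had the highest Fcgr2b, Fcgr3 and Fcgr4 of its treatment. The summed macrophage markers were highest there too, at 2806 RPKM against 1906 and 1434 in L635 replicates 2 and 3, although Emr1 was highest in replicate 2. Lyz2, the most abundant macrophage marker by mean, supplied the largest part of these sums, at 1306, 713 and 712 RPKM in L635. In DMP-777, replicate 2 had the highest mast cell sum, 402 RPKM, and the lowest Fcgr2b, 60.1 RPKM. Replicate 3 had the lowest sum, 212 RPKM, and the highest Fcgr2b, Fcgr3 and Fcgr4 of that treatment. Its macrophage markers summed to 2856 RPKM, also the highest of DMP-777. Fcgr3 and Fcgr4 were lowest in DMP-777 replicate 1. The part of mast cells or macrophages in these values was not tested. Without L635 replicate 1 the log2 fold change was 0.04 for Fcgr2b and -0.46 for Fcgr3. Neutrophils carry Fcgr3 and Fcgr4: their 13 markers, with Ly6g, Elane and Mpo at the floor, summed to 163, 559 and 169 RPKM in L635 and to 158, 329 and 356 RPKM in DMP-777. Retnlg was the most abundant of them, at 81.9, 471 and 79.5 RPKM in L635 and 85.1, 279 and 257 RPKM in DMP-777. It supplied most of the sum in L635 replicate 2, the highest library. S100a8, chosen after its values were seen, had another pattern, at 1.81, 1.23 and 3.19 RPKM in L635 and 26.6, 1 and 2.1 in DMP-777. The sums therefore do not measure neutrophil content.

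By level, Fcgr2b and Fcgr3 led and Fcgr1 was the lowest in 5 of 6 libraries. Fcgr2b was first in all 3 L635 libraries and in DMP-777 replicate 1, and Fcgr3 was first in DMP-777 replicates 2 and 3. Within libraries, Fcgr2b was above Fcgr3 in 4 of 6, Fcgr3 above Fcgr4 in 6 of 6 and Fcgr4 above Fcgr1 in 5 of 6. Fcgr2b and Fcgr3 thus changed places between libraries, and so did Fcgr4 and Fcgr1 in 1. Fcgr2b was above Fcgr4 in 5 of 6. The exception was DMP-777 replicate 2, with Fcgr4 at 61.0 and Fcgr2b at 60.1 RPKM. This order compares RPKM between genes and so rests on the gene lengths the authors used, which the sources used here do not give. In the GENCODE M21 annotation the union of exons is 5790 bases for Fcgr2b, more than any 1 of its transcripts holds, and 2589, 1736 and 1256 bases for Fcgr1, Fcgr3 and Fcgr4.

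The balance of activating to inhibitory receptors was then read within each library, where depth cancels. The summed level of Fcgr1, Fcgr3 and Fcgr4 exceeded that of Fcgr2b in all 6 libraries. The log2 ratio of the sum to Fcgr2b was 0.83, 0.62 and 1.07 in L635 and 0.81, 1.70 and 1.21 in DMP-777. The means were 0.84 ± 0.22 in L635 and 1.24 ± 0.44 in DMP-777, a difference of -0.40 with overlapping groups. This rested on single libraries: leaving out DMP-777 replicate 1 gave -0.62 with the groups apart, although 2 values lie apart more easily than 3, and leaving out DMP-777 replicate 2 gave -0.17. When the length and GC trend was taken out the difference was 0.04. Expressed as a share of all 4 receptors, Fcgr2b made up 35.8%, 39.3% and 32.1% in L635 and 36.1%, 23.3% and 30% in DMP-777. These ratios are scores over the chosen genes and carry no p-value.

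**Figure D2:**
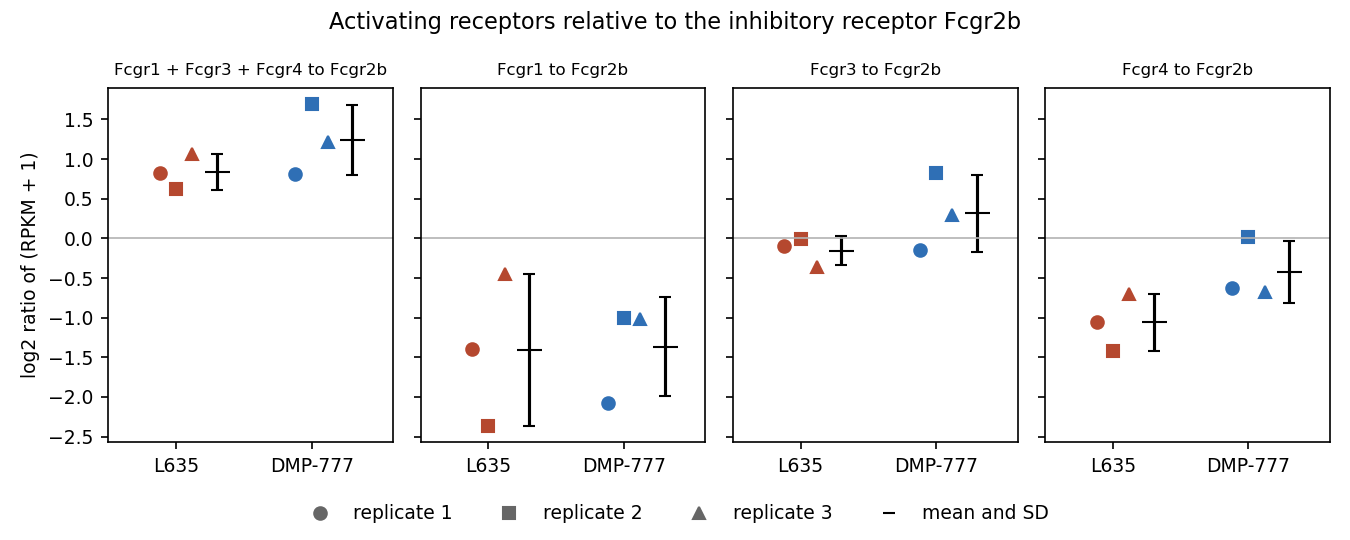
Log2 ratio of RPKM + 1 of the activating receptors, summed and singly, to that of the inhibitory Fcgr2b in each library; the line at 0 marks equal levels, and bars are the mean and SD of 3 libraries. For Fcgr4 the highest L635 value, -0.70, lies just under the lowest DMP-777 value, -0.68.

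Taken singly, the ratio of Fcgr4 to Fcgr2b was the only one whose groups lay apart with all 6 libraries. Its log2 value was -1.05, -1.42 and -0.70 in L635 and -0.62, 0.02 and -0.68 in DMP-777, with means of -1.06 ± 0.36 in L635 and -0.43 ± 0.39 in DMP-777 and a difference of -0.63. The gap between the groups was only 0.01. Of all 12102 genes tested, the log2 ratio to Fcgr2b lay entirely lower in L635 for 8.34%, entirely higher for 2.02%, and apart in either direction for 10.4%; this comparison was added after seeing the data. With a pseudocount of 5 the groups overlapped, and when the length and GC trend was taken out they overlapped with a difference of -0.14. The ratio of Fcgr3 to Fcgr2b was -0.09, -0.01 and -0.36 in L635 and -0.15, 0.82 and 0.29 in DMP-777, a difference of -0.47. Leaving out DMP-777 replicate 1 gave -0.71 with the groups apart, and leaving out DMP-777 replicate 2 gave -0.22. For Fcgr1 to Fcgr2b it was -1.40, -2.37 and -0.45 in L635 and -2.08, -1.0 and -1.01 in DMP-777, a difference of -0.04.

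The common gamma chain gene Fcer1g, on which the activating receptors depend, was above each of them in every library. It was at 285, 274 and 141 RPKM in L635 and at 256, 363 and 358 RPKM in DMP-777; the log2 fold change, -0.53 ± 0.38, did not pass (limma adjusted p = 0.655). Tyrobp, which encodes the related adaptor DAP12, was at 376, 398 and 222 RPKM in L635 and at 276, 472 and 366 RPKM in DMP-777, a log2 fold change of -0.18. The T cell zeta chain gene Cd247 was near the floor, below 2 RPKM in every library, although its groups lay apart (log2 fold change 0.47). L635 replicate 3 was the lowest library for both adaptors, as it was for Fcgr3.

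The receptors varied together only in part across the 6 libraries. On log2(RPKM + 1), Pearson r between receptors ran from 0.05 for Fcgr2b with Fcgr4 to 0.63 for Fcgr3 with Fcgr4, and it was 0.22 for Fcgr1 with Fcgr3, 0.24 for Fcgr1 with Fcgr2b, 0.53 for Fcgr1 with Fcgr4 and 0.56 for Fcgr2b with Fcgr3. Once the mean of each treatment was removed, the range was from 0.22 for Fcgr1 with Fcgr2b to 0.83 for Fcgr1 with Fcgr4. With Fcer1g, r was 0.90 for Fcgr3, 0.62 for Fcgr4, 0.35 for the inhibitory Fcgr2b and -0.12 for Fcgr1. With the mean of each treatment removed, these were 0.93, 0.38, 0.69 and -0.07. Over the 17 macrophage markers, r with Fcgr3 was positive for 15 and had a median of 0.49, from -0.88 for Msr1 to 0.92 for the growth factor receptor gene Csf1r. With Fcgr1 it was positive for 9 and had a median of 0.13, from -0.55 for Marco to 0.94 for Cx3cr1 (Msr1, Marco and Cx3cr1 are named as the ends of these ranges). With Fcgr2b and Fcgr4 it was positive for 14 and 12, with medians of 0.34 and 0.55. Emr1 was at 0.85 with Fcgr3 and -0.05 with Fcgr1, and Csf1r was at 0.50 with Fcgr1. These values only describe 6 libraries, and all genes of a library share its depth, its macrophage and epithelial content and its treatment.

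**Figure D3:**
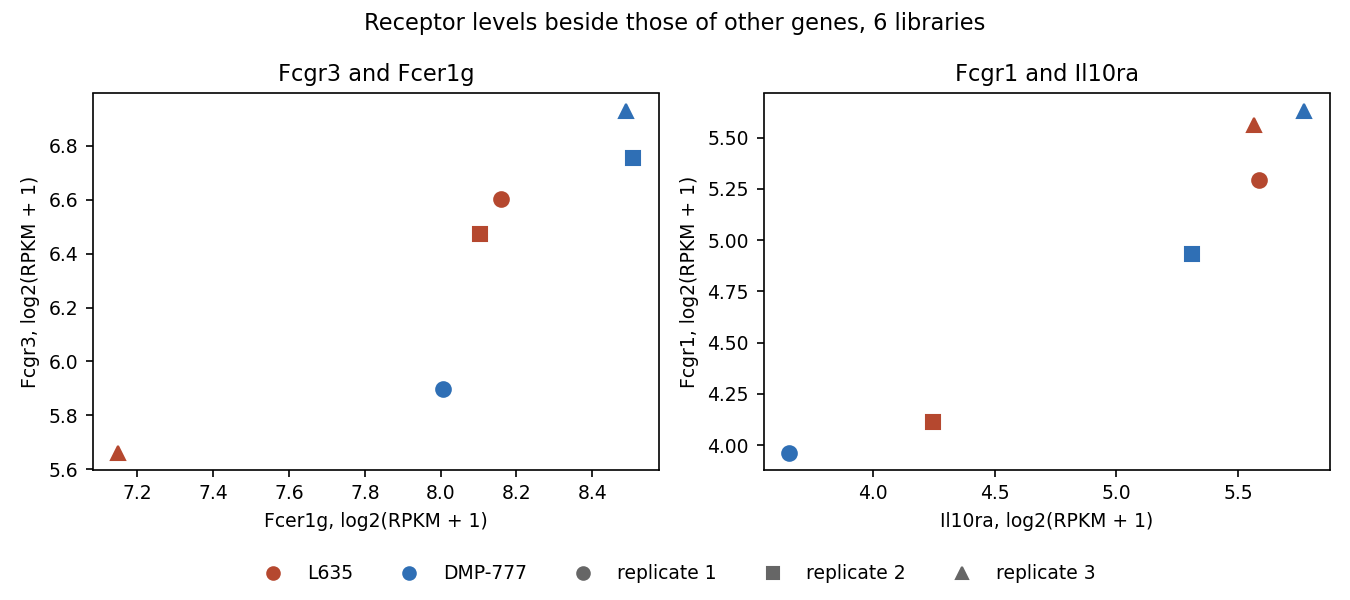
Levels, as log2 of RPKM + 1, of Fcgr3 against Fcer1g (left) and of Fcgr1 against Il10ra (right) in the 6 libraries; colour gives the treatment and shape the replicate. The r values are 0.90 and 0.97, and in the right panel L635 replicate 2 and DMP-777 replicate 1 lie far below the other 4 libraries.

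Genes whose products are known to act on transcription of these receptors were compared in the same way. Of 15 tested, r with Fcgr1 was positive for all 15, with a median of 0.63, and it was highest, 0.97, for Il10ra, the receptor chain for interleukin 10, a cytokine known to raise FcγRI. It was followed by 0.92 for the myeloid transcription factor gene Irf8 and 0.91 for Stat6 (Il10ra, Irf8 and Stat6 were picked for their r, after values were seen). Over the same 15 genes r was positive for 14 with Fcgr2b, 12 with Fcgr3 and 12 with Fcgr4. The medians were 0.36, 0.51 and 0.58, so a mostly positive r was not particular to Fcgr1. How many of all genes had a positive r with each receptor was not counted. Il10ra itself was at 47.0, 18.0 and 46.3 RPKM in L635 and at 11.6, 38.7 and 53.6 RPKM in DMP-777, low in the same libraries as Fcgr1. Irf1, a transcription factor gene induced by interferon gamma, was at 20.4, 21.6 and 20.3 RPKM in L635 and at 4.07, 18.2 and 10.5 RPKM in DMP-777, without overlap. The interferon gamma receptor gene Ifngr1 had a log2 fold change of -0.49. Among the regulators 7 were higher and 8 lower in L635 (median log2 fold change -0.04). Of them 1, Irf1 at 1.07 (limma adjusted p = 0.453), had an unadjusted p below 0.05, against 10.1% of all genes. The groups lay apart for 1 regulator higher in L635 and 1 lower, against 7.25% and 8.75% of all genes.

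The genes with the most similar pattern over the 6 libraries were taken from 5776 genes at or above the median level, so that high values follow from the choice. For Fcgr1 they were Slc15a3, a transporter of endolysosomes, with r = 0.994, Gar1 (0.991) and Pitpnm1 (0.989). For Fcgr2b they were Aktip (0.982), the actin-binding Coro1c (0.981) and the paired receptor gene Pilrb2 (0.96). For Fcgr3 the nearest was Ctss, the lysosomal protease cathepsin S, with 387, 362 and 275 RPKM in L635 and 302, 404 and 437 in DMP-777 (r = 0.998), followed by Litaf (0.992) and the transferrin gene Trf (0.989). For Fcgr4 they were Ms4a6d (0.995), the zinc transporter gene Slc30a6 (0.995) and Ubl7 (0.992). None of these genes was named for more than 1 receptor.

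Downstream of the receptors, more genes of the activating route were higher than lower in L635, although none passed. Of 25 kinases, lipid enzymes and adaptors, 21 had a positive log2 fold change, with a median of 0.46 against 0.00 over all genes tested. At an unadjusted p below 0.05, 5 were higher and 0 lower, against 3.78% and 6.33% of all genes. That number was 1 when L635 replicate 3 or DMP-777 replicate 2 was left out, 8 when DMP-777 replicate 3 was, and 3 when any other library was. With the epithelial level as a covariate it was 0 and the median 0.18. Counts over all 12102 genes moved as well. With all libraries 457 were higher and 766 lower at such a p, and with the epithelial covariate 70 and 181. Leaving out L635 replicates 1, 2 and 3 gave 584 and 993, 383 and 425, and 190 and 462. Leaving out DMP-777 replicates 1, 2 and 3 gave 389 and 817, 201 and 421, and 670 and 911. Syk, the kinase that docks to the phosphorylated ITAM, was at 24.0, 46.6 and 22.2 RPKM in L635 and at 7.11, 16.5 and 24.2 RPKM in DMP-777; the log2 fold change, 0.98 ± 0.44, did not pass (limma adjusted p = 0.481). Malt1, of the signalling complex that activates NF-kappaB, was at 10, 12.3 and 16.8 RPKM in L635 and at 2.81, 2.53 and 8.85 RPKM in DMP-777, without overlap; the log2 fold change, 1.44 ± 0.49, did not pass (limma adjusted p = 0.415). The scaffold gene Gab2 and the lipid kinase gene Pik3cd had 0.89 and 1.13, and the Src family kinase gene Lyn had 0.20.

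**Figure D4:**
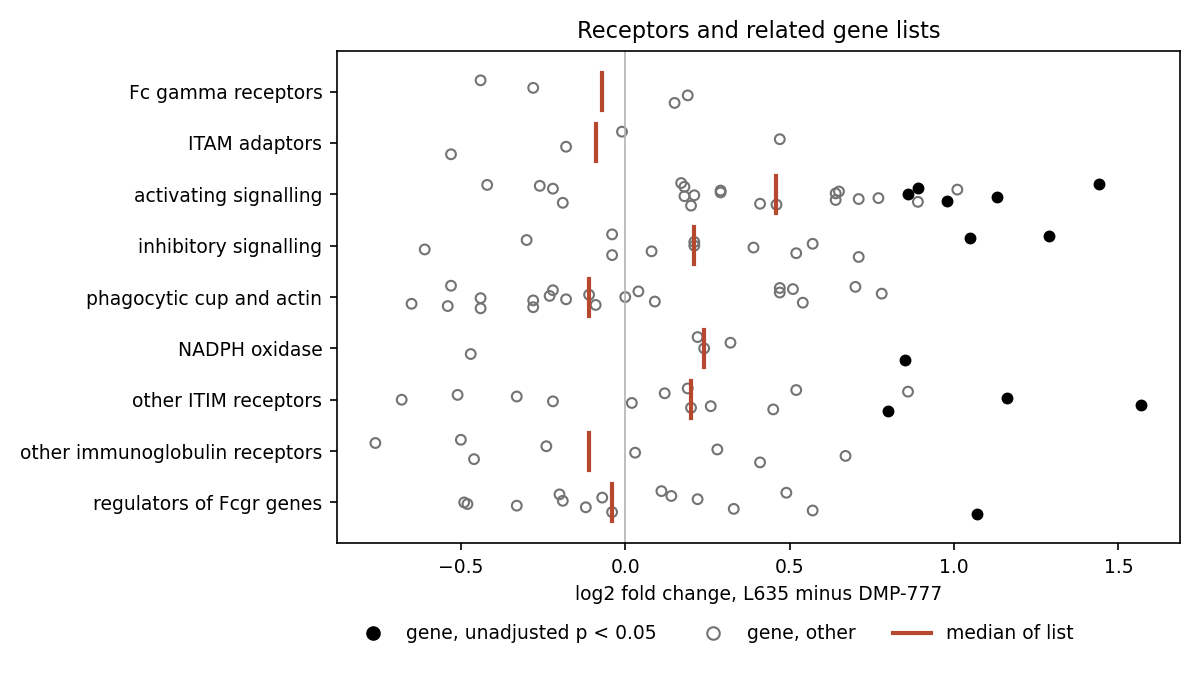
Log2 fold change, L635 minus DMP-777, of each tested gene of the receptor list and of 8 related lists; filled points have an unadjusted p below 0.05 and red lines are medians. The 4 receptors lie between -0.44 and 0.19, while the activating signalling genes have a median of 0.46.

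Genes of the inhibitory route also had more positive than negative values. Of 13 phosphatases, adaptors and ubiquitin ligases, 9 were higher in L635 and 4 were lower (median 0.21), and 2 had an unadjusted p below 0.05, against 10.1% of all genes. With the epithelial level as a covariate 7 were higher, the median was 0.06 and 0 had such a p. Leaving out DMP-777 replicate 1 gave a median of 0.04 with 7 higher. The number with such a p was 4 when DMP-777 replicate 3 was left out, and 1 when any L635 library or DMP-777 replicate 2 was. The counts over all genes in these fits are those given above for the activating route. Inpp5d, which encodes SHIP-1, the phosphatase recruited by FcγRIIB, was at 27.0, 22.4 and 24.1 RPKM in L635 and at 8.31, 14.1 and 25.8 RPKM in DMP-777; the log2 fold change, 0.71 ± 0.39, did not pass (limma adjusted p = 0.553). DMP-777 replicate 3 lay within the range of L635, and the other 2 DMP-777 libraries lay below it. Ptpn6, encoding the tyrosine phosphatase SHP-1, had 0.52. Ubash3b, a phosphatase that restrains Syk, had 1.29 and Pag1 had 1.05, both with separated groups (limma adjusted p = 0.419 and 0.494).

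Other receptors that carry an ITIM were higher in 11 of 15 cases, with a median of 0.20, and 3 had an unadjusted p below 0.05, against 10.1% of all genes. The direction was not stable: the median was -0.12 with 7 higher and 0 such p with the epithelial level as a covariate, and -0.15 with 7 higher when DMP-777 replicate 1 was left out. The number with such a p was 1 when L635 replicate 2 was left out and 0 when DMP-777 replicate 2 was. Here too the counts over all genes are those given for the activating route. Cd33, which encodes a sialic acid-binding lectin, was at 69.6, 50 and 53.3 RPKM in L635 and at 19.8, 16.2 and 48.5 RPKM in DMP-777; the log2 fold change, 1.16 ± 0.39, did not pass (limma adjusted p = 0.414). Pirb, listed in the table as Lilrb3, and Cd300lf had 0.80 and 1.57 (limma adjusted p = 0.435 each). Fcgr2b, with 0.19, lay near the median of this list.

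The effectors of phagocytosis showed no common direction. Of 21 genes of the phagocytic cup and its actin, 9 were higher in L635 and 12 lower; the median was -0.11 and turned to 0.24 after quantile normalization and to 0.18 with the macrophage level as a covariate. The exchange factor gene Dock2 had 0.78, the actin nucleation gene Wasl -0.65 and the phospholipase gene Pla2g4a 0.70. Of 5 genes of the phagocyte NADPH oxidase, 4 were higher with a median of 0.24. With the epithelial level as a covariate 2 were higher and the median was -0.06, and when DMP-777 replicate 1 was left out 3 were higher and it was 0.03; leaving out L635 replicate 2 gave 0.10. Its catalytic subunit gene Cybb was at 98.2, 126 and 90.6 RPKM in L635 and at 35.0, 57.3 and 93.1 RPKM in DMP-777 (log2 fold change 0.85 ± 0.36, limma adjusted p = 0.455), while its partner Cyba had -0.47.

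Other immunoglobulin receptors and their relatives, among them the neonatal receptor and Fc receptor-like genes, were compared as well. Of 13 such genes, 8 were tested, 4 higher and 4 lower in L635 (median -0.11). Fcgrt, which encodes the neonatal receptor that recycles immunoglobulin G, was at 23.2, 27.3 and 10 RPKM in L635 and at 32.2, 17.6 and 31.3 RPKM in DMP-777; the log2 fold change, -0.46, did not pass (limma adjusted p = 0.712). Fcrlb had -0.76, and the epithelial transporter of immunoglobulin A, Pigr, had 0.67. Transcripts of antibody chains in the sorted cells do not measure the antibody that the receptors bind. The heavy chain genes Ighg1, Ighg2b, Ighg2c and Ighg3 were listed at the floor of 1 in all 6 libraries. Ighm alone of the immunoglobulin chains was tested, at 68.4, 60.8 and 37.1 RPKM in L635 and 28.7, 78.2 and 94.7 RPKM in DMP-777, a log2 fold change of -0.15. The light chain gene Igkc, named after its values were seen, was at 18.7 and 5.54 RPKM in L635 replicates 1 and 2 and at the floor in the other 4 libraries.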

How the data were processed

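Total RNA of sorted F4/80-positive cells was amplified with a NuGEN Ovation kit, and the libraries were read single-end by Illumina HiSeq, per the labels' protocols; the gastric tissue was digested with dispase before sorting, and both steps can shift transcript levels. The submitters' processing notes name FastQC, TopHat 1.4, SAMtools and mm9 with no role for each; the sources used here do not give the counting tool, annotation or strand setting. The authors deposited 1 table of normalized values, recognised as RPKM from the spacing of low values multiplied by exonic length. No counts or batches are given. Coordinates are those of the table; 99.8% of 22268 genes overlap the same identifier in GENCODE M21, so they are given as GRCm38. All per-sample columns were used (0 left out).

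Genes above 1 RPKM in at least 3 libraries were kept (12102 of 23049), and log2(RPKM + 1) was compared between L635 and DMP-777 in limma 3.58.1 (R 4.3.3), using a mean-variance trend, two-sided tests and Benjamini-Hochberg adjustment over all genes tested. The fold changes are on that scale and understate those of low genes. Steps were tested on simulated data. Likeness is Pearson r over 6 libraries. Fold changes, SE and 95% intervals come from this fit. Beside the 4 receptors, the text names Fcer1g, Tyrobp, Syk, Lyn, Inpp5d, Ptpn6, Emr1 and Csf1r, up to 3 members of each related list with the smallest p, the most abundant or floor-level members of the marker lists, and the 3 genes most like each receptor; genes outside this rule are marked as chosen after their values were seen. Some genes that the rule would name are not reported here. The members and the 24 lists were chosen with earlier results of these data known. Alternatives covered the pseudocount, filter, normalization, length and GC trend, limma settings, covariates and each library left out.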

Additional observations from a re-analysis of the deposited data

How the results depend on the processing

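No gene passed an adjusted p of 0.05 in limma under any alternative (0 genes in each), with the smallest adjusted p at 0.0611, without DMP-777 replicate 3; 1223 genes had an unadjusted p below 0.05 in the reported comparison. Of 740 recomputed values, 703 kept their direction or moved by less than the spread between replicates, which is a weak criterion. For a gene it required only that the sign held, however much the size shrank. Changing the filter or the mean-variance trend cannot alter a fold change, and the counts of genes that passed are among these values. The 703 is therefore no measure of robustness. With 1 library left out, the log2 fold change ran from -0.29 to 0.59 for Fcgr1, -0.60 to 0.01 for Fcgr3, 0.04 to 0.41 for Fcgr2b and -0.62 to -0.30 for Fcgr4. It ran from -0.37 to 0.09 for Tyrobp, -0.19 to 0.61 for Emr1, -0.59 to 0.00 for Csf1r, -0.09 to 1.38 for Pigr and -0.67 to 0.17 for Ighm. List medians ran from -0.31 to 0.05 for the ITAM adaptors, -0.29 to 0.18 for the phagocytic cup, -0.15 to 0.47 for other ITIM receptors, -0.28 to 0.24 for the regulators and -0.53 to 0.15 for other immunoglobulin receptors. After quantile normalization Fcgr3 was 0.12, Tyrobp 0.22, Csf1r 0.27, Cyba 0.03, Ighm 0.17 and the median of the phagocytic cup 0.24. When the length and GC trend was taken out, Fcgr3 was 0.01, Tyrobp 0.17, Ighm 0.11 and the median of the ITAM adaptors 0.25. The same removal left a difference of 0.04 in the log2 ratio of summed activating receptors to Fcgr2b, -0.06 for Fcgr3 to Fcgr2b and -0.14 for Fcgr4 to Fcgr2b. The exonic length used for it, 5790 bases for Fcgr2b, may differ from the authors' length. With the macrophage level as a covariate Fcgr3 was 0.06, Tyrobp 0.04, Csf1r 0.16, Ighm 0.31 and the median of the phagocytic cup 0.18. With the epithelial level as a covariate Fcgr1 was -0.45 and Ptpn6 -0.07, and the medians of other ITIM receptors and the NADPH oxidase were -0.12 and -0.06. Array weights turned Emr1 to -0.06. The cause was not tested for any of these. The list medians were recomputed by choice after seeing the data. No paired analysis was possible because the identifiers in the titles are not shared between the treatments.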
